A study of Mus musculus with 4 samples.

Results

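The 9 clock output regulators Nr1d1, Nr1d2, Rora, Dbp, Tef, Hlf, Nfil3, Bhlhe40 and Bhlhe41 were examined in mRNA-seq libraries of mouse embryonic stem cells (mESCs). They were chosen by name, as the rows of the deposited table whose Ensembl identifier carries one of these symbols, and are 9 of the 37310 genes listed. The libraries were 2 of JM8 wild-type cells and 2 labelled Bmal1-/-, all 4 of the series, from the mouse strain C57BL6/N. Both labels were grown without feeder cells in N2B27 medium with LIF, 1 µM of the Mek inhibitor PD0325901 and 3 µM of the Gsk3 inhibitor CHIR99021 (2i + LIF). The Bmal1-/- cells are 1 clonal line with CRISPR/Cas9 indels in both alleles of Bmal1, and wild-type is the parental line, so that whatever else separates these 2 lines cannot be told apart from the genotype.

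In tissues with a circadian clock, Bmal1 and Clock bind E-boxes as a pair and activate a first set of genes, and the regulators described here carry that rhythm on to later genes. Rev-erb receptors (Nr1d1, Nr1d2) repress and Ror receptors (Rora) activate through a shared element, the RRE, which is also how they act on Bmal1 itself. Dbp, Tef and Hlf are PAR-bZIP activators of D-box genes, Nfil3 is a bZIP repressor that competes for the same D-boxes, and the Dec proteins (Bhlhe40, Bhlhe41) are bHLH repressors that compete for E-boxes. mESCs are known to express clock genes without circadian oscillation, which is the setting in which these levels were read.

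Because the clock factors act through these short motifs, the start regions of the regulators were searched for them. RefSeq promoter windows (GRCm38.p6, from 250 bases before to 50 bases after an annotated start) were found for 8 of the 9 genes, in 9 windows, with 2 windows for Tef. The motifs were the E-box CACGTG, the E'-box CACGTT, the D-box TTANNTAA and the RRE core AGGTCA, each on both strands, and the longer RRE that holds the core. The 6 windows with a match are printed here, 5′ to 3′ on the strand of the gene, with the matches in capitals. Tef start 1 lies at chr15:81802423-81802722 and Tef start 2 at chr15:81811164-81811463 on the plus strand, and the windows of Bhlhe41 (chr6:145865371-145865670), Nr1d1 (chr11:98775328-98775627), Nr1d2 (chr14:18239057-18239356) and Nfil3 (chr13:52980990-52981289) lie on the minus strand.
Tef start 1: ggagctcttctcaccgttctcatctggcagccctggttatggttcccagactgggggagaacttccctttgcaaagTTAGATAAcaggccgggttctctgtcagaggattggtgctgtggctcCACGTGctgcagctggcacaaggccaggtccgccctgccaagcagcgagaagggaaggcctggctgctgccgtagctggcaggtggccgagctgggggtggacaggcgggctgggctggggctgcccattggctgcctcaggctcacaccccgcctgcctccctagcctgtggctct
Tef start 2: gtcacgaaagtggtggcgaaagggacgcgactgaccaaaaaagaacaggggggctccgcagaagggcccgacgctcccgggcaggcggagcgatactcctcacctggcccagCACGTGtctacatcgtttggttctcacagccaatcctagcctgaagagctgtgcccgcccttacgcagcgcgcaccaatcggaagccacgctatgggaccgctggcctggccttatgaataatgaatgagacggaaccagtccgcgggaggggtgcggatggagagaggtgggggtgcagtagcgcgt
Bhlhe41: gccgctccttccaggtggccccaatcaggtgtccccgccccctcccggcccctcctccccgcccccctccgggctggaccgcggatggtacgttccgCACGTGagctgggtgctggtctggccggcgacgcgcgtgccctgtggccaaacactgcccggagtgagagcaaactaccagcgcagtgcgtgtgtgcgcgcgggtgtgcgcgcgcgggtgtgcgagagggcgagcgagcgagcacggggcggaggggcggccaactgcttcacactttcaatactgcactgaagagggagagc
Nr1d1: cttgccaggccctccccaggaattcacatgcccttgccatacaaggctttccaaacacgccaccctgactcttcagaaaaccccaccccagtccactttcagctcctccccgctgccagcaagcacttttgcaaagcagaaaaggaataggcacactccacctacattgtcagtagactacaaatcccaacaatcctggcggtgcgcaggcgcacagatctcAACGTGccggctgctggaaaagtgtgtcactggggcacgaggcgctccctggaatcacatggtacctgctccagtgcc
Nr1d2: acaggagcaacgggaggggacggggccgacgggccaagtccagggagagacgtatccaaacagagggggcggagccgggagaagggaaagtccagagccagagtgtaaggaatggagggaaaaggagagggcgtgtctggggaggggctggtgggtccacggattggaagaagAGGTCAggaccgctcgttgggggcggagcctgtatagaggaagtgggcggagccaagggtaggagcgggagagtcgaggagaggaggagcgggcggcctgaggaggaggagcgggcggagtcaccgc
Nfil3: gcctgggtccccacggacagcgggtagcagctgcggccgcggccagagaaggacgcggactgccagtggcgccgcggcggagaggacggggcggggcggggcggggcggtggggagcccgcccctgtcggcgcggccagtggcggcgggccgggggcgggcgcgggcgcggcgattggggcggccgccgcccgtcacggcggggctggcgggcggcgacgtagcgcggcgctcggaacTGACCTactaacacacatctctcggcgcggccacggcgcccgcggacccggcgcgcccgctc

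An E-box was present in both windows of Tef, beginning 127 and 138 bases before the start, and in that of Bhlhe41, 153 bases before it. Among 32544 promoter windows of the same length, 7.17% held an E-box. The Nr1d1 window held an E'-box on the opposite strand 28 bases before the start (4.71% of windows). Only in this window did the bases after the start match no GENCODE M1 coding transcript of the gene. Its start, and so that distance, rests on RefSeq alone. Tef start 1 also held a match to the D-box pattern at 174 bases before the start (5.98% of windows). That pattern leaves its middle bases free, so a match need not be a D-box. The RRE core was found in Nr1d2, 77 bases before the start, and on the opposite strand in Nfil3, 12 bases before it (16.2% of windows). No window of the 9 matched the longer RRE, which 0.384% of all windows did. Matches describe these letters only and are not binding sites, and windows of 300 bases leave out elements farther away. The map of motif matches shows their places.

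**Figure D1:**
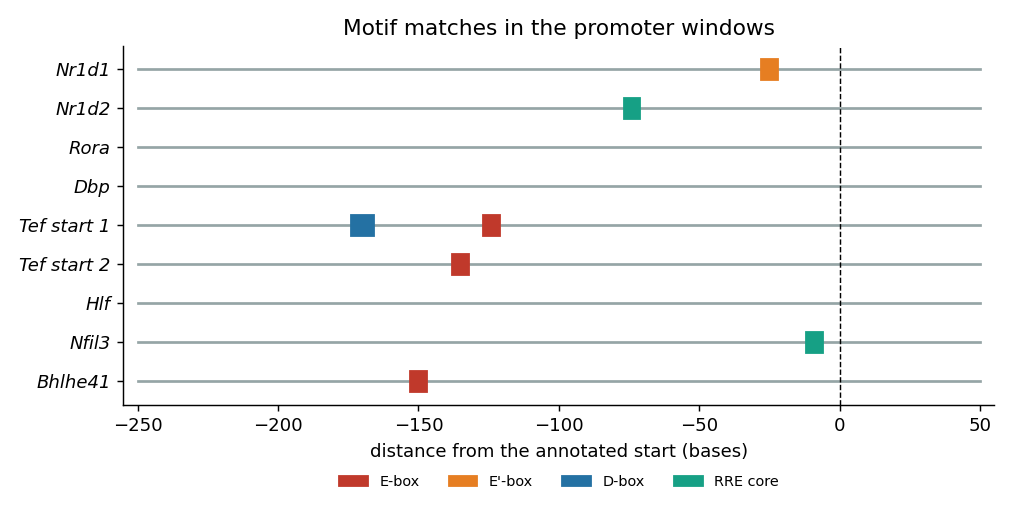
Motif matches in the 9 RefSeq promoter windows of the clock output regulators. Each grey line is 1 window from 250 bases before to 50 bases after the annotated start (dashed), the x axis is the distance from that start in bases, and the coloured blocks are the matched motifs. E-boxes are seen in both Tef windows and in that of Bhlhe41, while Rora, Dbp and Hlf have no match. The D-box block marks a match to a pattern whose middle bases are free.

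Values are reads per gene divided by a scaling factor of the library (TMM, trimmed mean of M values), from 21504265 to 23329034 reads on genes per library. The targeted gene, listed as Arntl, was at 678 and 733 in wild-type and at 556 and 590 under the Bmal1-/- label (adjusted p = 0.0011 by limma). Its mRNA was thus present in all 4 libraries. Since small indels need not remove an mRNA, its level checks the genotype in neither direction, for which reason libraries are named by their labels. Markers fixed for the cell type were present, with all 9 naive pluripotency genes tested, 4 of them called higher, 5 called lower and none past 2-fold in limma at any p. Their summed level was 110645 to 113493 in wild-type libraries and 119375 to 121474 in the libraries labelled Bmal1-/-. Fibroblast markers summed to 69.5 to 75.4 against 97.3 to 109, with 5 of 7 genes at 3 reads or fewer in every library, Dcn and Lum at 0 and Thy1 called higher (0.59 on the log2 scale). Primitive endoderm markers (7 genes) summed to 177 to 193 against 195 to 198, but of the 4 tested Gata4 (0.55) and Sox17 (1.27) were called higher and Sox7 (−2.41) lower, so that 2 passed 2-fold. Two-cell-like markers, of which 4 of 6 were matched, summed to 134 to 156 against 1793 to 1868, and all 4 were called higher. Neural markers (5 genes) summed to 2933 to 3230 against 1419 to 1581, most of it Tubb3, with 2 of the 4 tested called lower and Fabp7 at 0. The libraries of the labels did not overlap for 76% of all genes tested. The sums of all 5 marker lists also lay apart by label, for primitive endoderm only narrowly (193 against 195). They thus move with each difference between labels in the regulators. Their part in it was not tested. In bulk libraries fewer cells that express a gene and less mRNA per cell cannot be told apart.

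Between the labels, some regulators were higher and others lower. In limma on log2(value + 1), fitted to the 14510 genes whose mean over the 4 libraries reached 10, 8 of the 9 regulators were tested and Bhlhe41 fell under the filter. Tef, Dbp and Rora were called higher in the libraries labelled Bmal1-/- and Bhlhe40 and Nr1d2 lower (Benjamini-Hochberg adjusted p under 0.05 over all genes tested), while Hlf, Nfil3 and Nr1d1 were not called. Without Bmal1-/- replicate 1 only Tef was called higher. Of all genes tested, 24% were called higher (3488) and 28.6% lower (4151), and with values scaled to equal library totals 4200 were higher and 3194 lower. Beside these shares, 3 higher and 2 lower of 8 show nothing particular to the regulators as a group. No regulator passed 2-fold in limma, edgeR or DESeq2 at any p, against 7.21% of all genes tested that did so with an adjusted p under 0.05 in limma. The libraries of the labels did not overlap for any of the 8 regulators tested, as for 76% of all genes tested. They were apart only narrowly for Nr1d1 (253 against 249) and did overlap for Bhlhe41. The median log2 fold change of the 8 was 0.31, beside −0.03 over all genes tested, but −0.23 over the 5 regulators with a mean of at least 100 and 0.12 with quantile normalization. The plots of values by library and of fold changes show the same data.

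**Figure D2:**
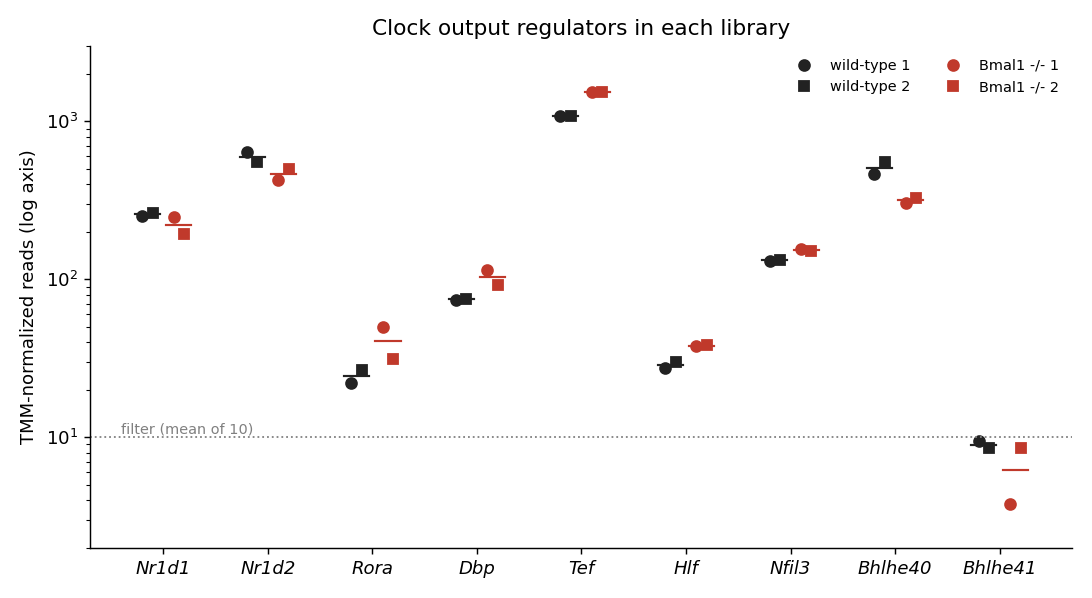
TMM-normalized reads of the 9 regulators in each library, on a log axis. Circles and squares are replicates 1 and 2, black for wild-type and red for the libraries labelled Bmal1-/-, short lines are means of 2 libraries, and the dotted line marks the filter at a mean of 10. The Tef replicates lie closest together, and Bhlhe41 lies under the filter.

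**Figure D3:**
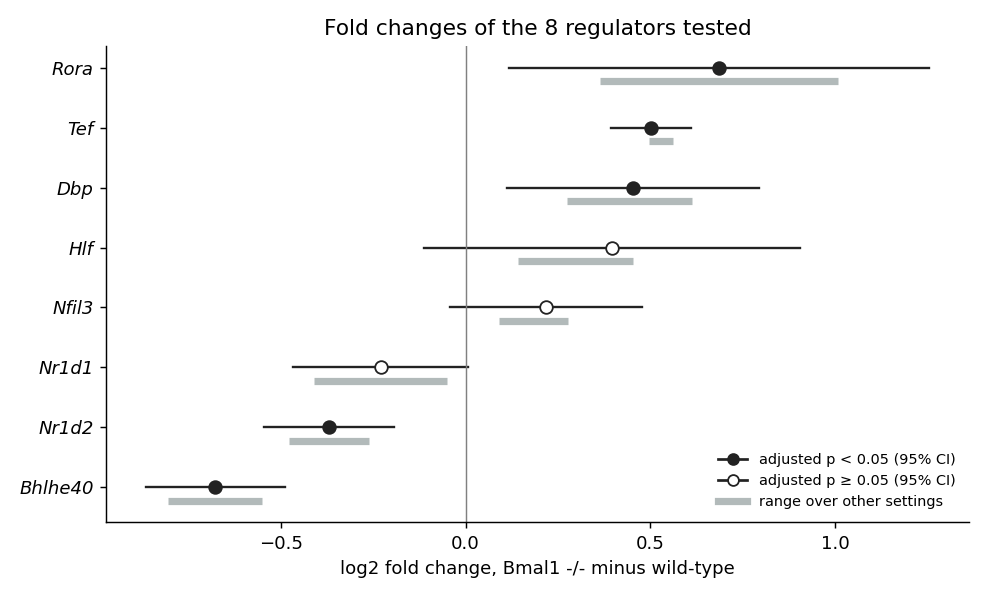
Log2 fold change (libraries labelled Bmal1-/- minus wild-type) of the 8 regulators tested, with 95% confidence intervals from limma. Filled points have an adjusted p under 0.05 and grey bars span the values under all other settings, including those with 1 library left out. No bar crosses 0, while the intervals of Hlf, Nfil3 and Nr1d1 do.

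The Rev-erb receptors are nuclear receptors that bind haem and recruit a corepressor complex to RREs. Nr1d1 (Rev-erb alpha, ENSMUSG00000020889) lies on chromosome 11 from 98629246 to 98636647 on the minus strand in mm9, the build of all gene positions given here. It had 253 and 262 normalized reads in wild-type, against 249 and 194 under the Bmal1-/- label. The labels did not overlap, although Bmal1-/- replicate 1 lay just under wild-type. Unscaled reads were 240 and 247 against 265 and 203, so that this separation rests on the scaling chosen. Limma gave a log2 fold change of −0.23 ± 0.11 (SE), with a 95% confidence interval of −0.47 to 0.01, which did not pass (adjusted p = 0.098). It was −0.41 without Bmal1-/- replicate 1 (adjusted p = 0.018) and −0.05 without replicate 2 (adjusted p = 0.79), so that 1 library decides its size. Of its exon bases, 8.42% are shared with Thra on the opposite strand, which had 332 and 317 against 260 and 259, and since no source states whether counting used strand, reads in that stretch cannot be told apart.

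Nr1d2 (Rev-erb beta, ENSMUSG00000021775, chromosome 14 from 19036568 to 19071641) is the paralog that acts beside Nr1d1. Wild-type values were 635 and 556, and those under the Bmal1-/- label 426 and 496. Both of the latter lay below both of the former, and the mean fell by 22.5%. On the log2 scale this was −0.37 ± 0.08 (SE), with an adjusted p of 0.0010 from limma, 4.7e-04 from edgeR and 0.021 from DESeq2. The call was lost with no filter on low values and in limma without the trend, both with an adjusted p of 0.085. Per kilobase of exon, Nr1d2 supplied 56.9% to 61.0% of the Rev-erb level in wild-type libraries and 51.7% to 61.5% in the others, ranges that overlap.

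Rora (ENSMUSG00000032238, chromosome 9 from 68501593 to 69236053) encodes the Ror receptor alpha, which activates the elements that Rev-erbs repress. It rested on few reads, with 22.1 and 26.6 in wild-type (21 and 25 reads) against 49.8 and 31.5 under the Bmal1-/- label (53 and 33 reads). The labels did not overlap, but the lower Bmal1-/- value was nearer to wild-type than to its own replicate. Counting alone leaves exact Poisson 95% intervals of 17.2 to 39.2 for wild-type replicate 2 and 21.7 to 44.2 for Bmal1-/- replicate 2, which overlap. Limma called it with a log2 fold change of 0.69 ± 0.27 (SE, adjusted p = 0.040), and edgeR with an adjusted p of 0.022. It lost the call in DESeq2 (adjusted p = 0.19), with no filter on low values (0.17) or a mean of at least 1 (0.11), with quantile normalization (0.21, log2 fold change 0.42) and in limma without the trend (0.12). Without Bmal1-/- replicate 1 the limma log2 fold change was 0.36 (adjusted p = 0.44), without wild-type replicate 1 it was 0.56 (adjusted p = 0.098), and without Bmal1-/- replicate 2 it was 1.01. Its paralog Rorb was listed at 0 reads in every library.

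Among the PAR-bZIP activators, Tef (ENSMUSG00000022389, chromosome 15 from 81632851 to 81657291), whose windows with E-boxes are shown above, had the most reads and the smallest p of the regulators. Wild-type libraries held 1085 and 1082, and those with the Bmal1-/- label 1540 and 1529. Replicates lay within 1.01-fold of each other, far closer than the labels, and the mean rose 1.42-fold. Limma gave a log2 difference of 0.50 ± 0.05 (SE, adjusted p = 1.1e-07), with an adjusted p of 6.9e-10 from edgeR and 9.5e-11 from DESeq2. The value lay between 0.50 and 0.56 over the 16 other settings, all of which called it. Its size was not unusual, at percentile 85.5 of the log2 fold changes of all genes tested.

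Dbp (ENSMUSG00000059824, chromosome 7 from 52960458 to 52965525), the founding PAR-bZIP factor and a classic E-box target of Bmal1 and Clock, had 73.7 and 75.4 in wild-type and, under the Bmal1-/- label, 115 and 91.5. Both of the latter were higher, from 70 and 71 reads to 122 and 96. This was 0.45 ± 0.16 (SE) on the log2 scale, with an adjusted p of 0.025 from limma and 0.012 from edgeR. The call was lost in DESeq2 (adjusted p = 0.15), with no filter on low values (0.10) or a mean of at least 1 (0.064), with quantile normalization (0.17, log2 fold change 0.27) and in limma without the trend (0.068). Without Bmal1-/- replicate 1 the log2 fold change was 0.29 (adjusted p = 0.29). Dbp shares 16.7% of its exon bases with Sphk2 on the opposite strand, which had 933 and 880 against 808 and 789, so that reads in the shared stretch cannot be assigned.

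Hlf (ENSMUSG00000003949, chromosome 11 from 90197849 to 90252231), the third PAR-bZIP activator, was at 27.4 and 29.7 in wild-type and at 37.6 and 38.1 under the Bmal1-/- label. The values lay apart by label, yet came from only 26 to 40 reads. Its log2 fold change was 0.40 (95% confidence interval −0.11 to 0.90, adjusted p = 0.18 from limma), and it was 0.14 with quantile normalization (adjusted p = 0.62). Only limma without the trend called it (adjusted p = 0.026).

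Nfil3 (E4BP4, ENSMUSG00000056749, chromosome 13 from 53062578 to 53076442), the repressor that opposes these activators at D-boxes, was at 131 and 133 in wild-type, beside 156 and 151 with the Bmal1-/- label. Replicates were close and the labels lay apart. The difference of 0.22 on the log2 scale (95% confidence interval −0.04 to 0.48) did not pass (adjusted p = 0.15 from limma, 0.12 from edgeR and 0.38 from DESeq2). In limma without the trend it passed narrowly (adjusted p = 0.048), and with quantile normalization it was 0.09 (adjusted p = 0.53).

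Of the bHLH repressors, Bhlhe40 (Dec1, ENSMUSG00000030103, chromosome 6 from 108610623 to 108616919) had the lowest log2 fold change of the regulators tested. Wild-type replicates had 462 and 551, and Bmal1-/- replicates 302 and 329. The mean fell by 37.7%, and the nearest values of the labels were farther apart than either pair of replicates. In limma this was −0.68 ± 0.09 (SE) on the log2 scale, with an adjusted p of 2.9e-06 against 2.1e-07 in edgeR and 1.4e-05 in DESeq2. It stood at percentile 3.89 of all genes tested, and all 16 other settings called it. The lincRNA gene 0610040F04Rik overlaps 3.61% of its exon bases on the opposite strand and had 50.6 and 48.9 against 31.0 and 37.2. No promoter window was matched for Bhlhe40.

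Bhlhe41 (Dec2, ENSMUSG00000030256, chromosome 6 from 145806763 to 145814078) was close to the limit of detection, with 9.48 and 8.50 in wild-type against 3.76 and 8.58. These stand for 9, 8, 4 and 9 reads, and 1 library of each label had the same 9. With no filter on low values its log2 fold change was −0.56 (adjusted p = 0.45 from limma), so that no difference was detectable at this depth.

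Levels were compared between genes per kilobase of exon in the mm9 annotation, where a gene with many annotated isoforms reads low because all its exons count. In wild-type libraries the order was Bhlhe40 (155 ± 19.2 normalized reads per kilobase, SD, n = 2), Tef (138 ± 0.24), Nr1d2 (119 ± 11.2), Nr1d1 (82.5 ± 2.16), Nfil3 (65.0 ± 0.75), Dbp (25.3 ± 0.40), Hlf (4.40 ± 0.26), Rora (1.86 ± 0.24) and Bhlhe41 (1.44 ± 0.11). The values of neighbours in this order did not overlap, though Bhlhe40 (lowest 141) and Tef (highest 138) came close. So did Rora (lowest 1.69) and Bhlhe41 (highest 1.51), whose wild-type reads (21 and 25 against 9 and 8) are too few to settle their order. Bhlhe40 stood at percentile 54.3 of all genes tested, Tef at 51.6, Hlf at 5.55 and Rora at 1.48. In the libraries labelled Bmal1-/- Tef stood first (195 ± 1.00), ahead of Bhlhe40 (96.5 ± 5.73) and Nr1d2 (92.1 ± 9.79), whose values overlapped. Nfil3 (75.7 ± 1.84) and Nr1d1 (70.8 ± 12.5) overlapped as well.

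**Figure D4:**
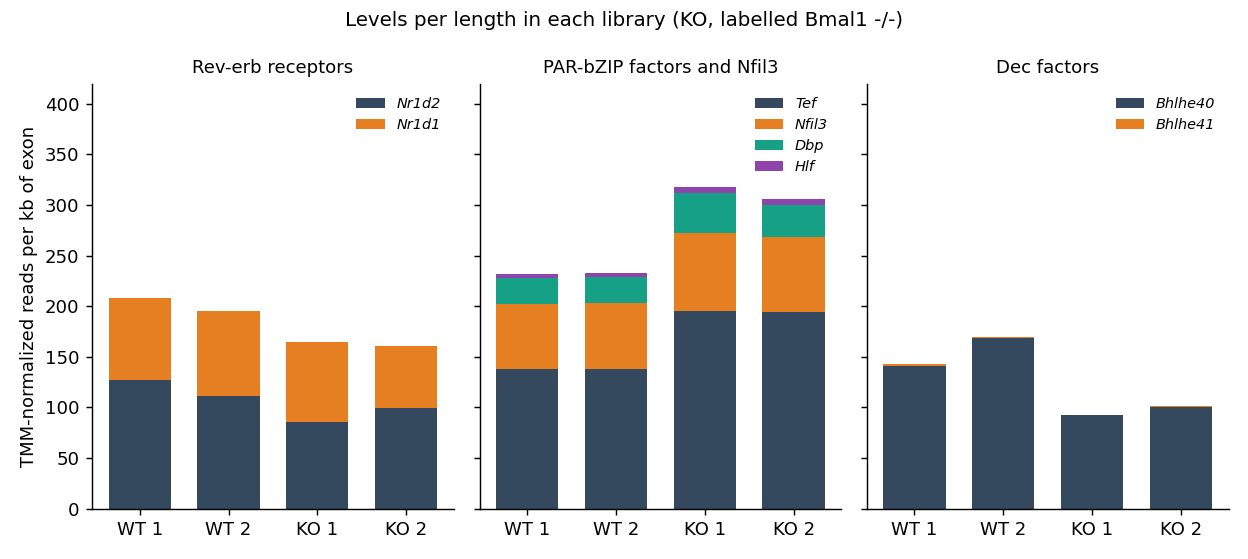
Normalized reads per kilobase of exon in each library, stacked by gene, for the Rev-erb receptors, the D-box factors and the Dec factors. WT is wild-type, KO is labelled Bmal1-/-, and numbers are replicates. The D-box factors sum to 232 and 233 in wild-type libraries and to 317 and 306 in the others, while the Rev-erb and Dec stacks are lower in the libraries labelled Bmal1-/-.

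Tef held most of the level of the D-box factors and Bhlhe40 that of the Dec factors, while Nr1d1 and Nr1d2 shared the Rev-erb level. Tef made up 59.0% to 59.5% of the D-box factors in wild-type libraries and 61.7% to 63.6% in the libraries labelled Bmal1-/-, while Nfil3 went from 27.8% and 28.1% to 24.2% and 24.3%. The 3 activators together were 2.59 and 2.56 times the level of Nfil3 in wild-type libraries and 3.12 and 3.11 times in the others. Hlf held 1.82% to 1.96% in all 4 libraries. The Rev-erb sum was 208 and 195 per kilobase in wild-type and 165 and 161 under the Bmal1-/- label. It was 123 and 96.1 times that of Rora in wild-type libraries, against 43.4 and 67.0 times in the others, a ratio that turns on the few reads of Rora. Bhlhe40 held at least 98.7% of the Dec level in every library. These shares and ratios are given as description, with no test.

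Rev-erb and Ror receptors act through coregulators, and 9 of 10 such genes were tested. Called higher were 4, and 1 lower, beside 24% higher and 28.6% lower of all genes tested. The median log2 fold change was 0.04 (−0.0008 without wild-type replicate 2). Ncoa2, a p160 coactivator of nuclear receptors, had 1307 and 1235 in wild-type and rose to 2581 and 2552 (1.01 ± 0.05 on the log2 scale, SE, adjusted p = 9.1e-13 by limma). Hdac3, the deacetylase of the Rev-erb corepressor complex, fell to 1560 and 1588 from wild-type values of 1988 and 1952 (−0.32 ± 0.05, SE, adjusted p = 1.2e-05). The other higher genes, named after their values were seen, were the corepressor Ncor1 (0.47), Nrip1 (0.29) and Tbl1x (0.12). Tbl1xr1, Gps2 and Ppargc1b were among those not called, and Ppargc1a had no more than 1 read in any library.

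Known targets in adult tissues were counted by element, beside the 24% of all genes tested that were called higher and 28.6% lower. Of 10 E-box targets outside the regulators, 2 were called, both higher, namely Cry1 and Cry2 (median log2 fold change 0.10, and −0.02 without wild-type replicate 2). Cry1, a repressor of Bmal1 and Clock, had 654 and 621 against 1268 and 1212 (0.96 ± 0.06 on the log2 scale, SE, adjusted p = 5.4e-11 by limma). Of 9 RRE targets 5 were tested and all were called (median 0.30, but 0.0029 with a mean of at least 100). Npas2 (1.40), Cry1 and Clock (0.30) were higher, and Arntl (−0.30) was among the lower. Arntl is the edited gene itself, so its change cannot be told apart from an effect of the edit on its own mRNA. Of 11 D-box targets 7 were tested, with a median of 0.15 (−0.04 without wild-type replicate 2), of which Pdxk, a pyridoxal kinase, was called higher (0.36, adjusted p = 2.0e-06) and Por, the electron donor of cytochrome P450 enzymes, lower (−0.28, adjusted p = 2.5e-04). At 3 reads or fewer in every library were 4 of the RRE targets and 4 of the D-box targets, among them Apoc3, G6pc and Cyp7a1, genes of the liver. Some genes stand in more than 1 list, and no direction held for the called genes of the RRE or the D-box targets.

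Among relatives of the regulators, 4 of 7 were tested. The C/EBP factor Cebpa, a bZIP protein outside the PAR group, rose from 16.9 and 12.7 in wild-type to 51.7 and 35.3 (1.48 ± 0.29 on the log2 scale, SE, adjusted p = 2.6e-04 by limma). Cebpg was lower (−0.18, adjusted p = 0.011 from limma, but 0.16 from DESeq2), and Cebpb and Cebpd were not called. Of 16 other genes of the core clock, 8 were called higher and 2 lower (Arntl and Timeless), with a median of 0.31. The fall of Arntl, the edited gene, cannot be told apart from an effect of the edit on its own mRNA. Of all genes tested, 24% were called higher and 28.6% lower, and whether these lists differ from that was not tested. The plot of gene lists places all of the lists beside the regulators.

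**Figure D5:**
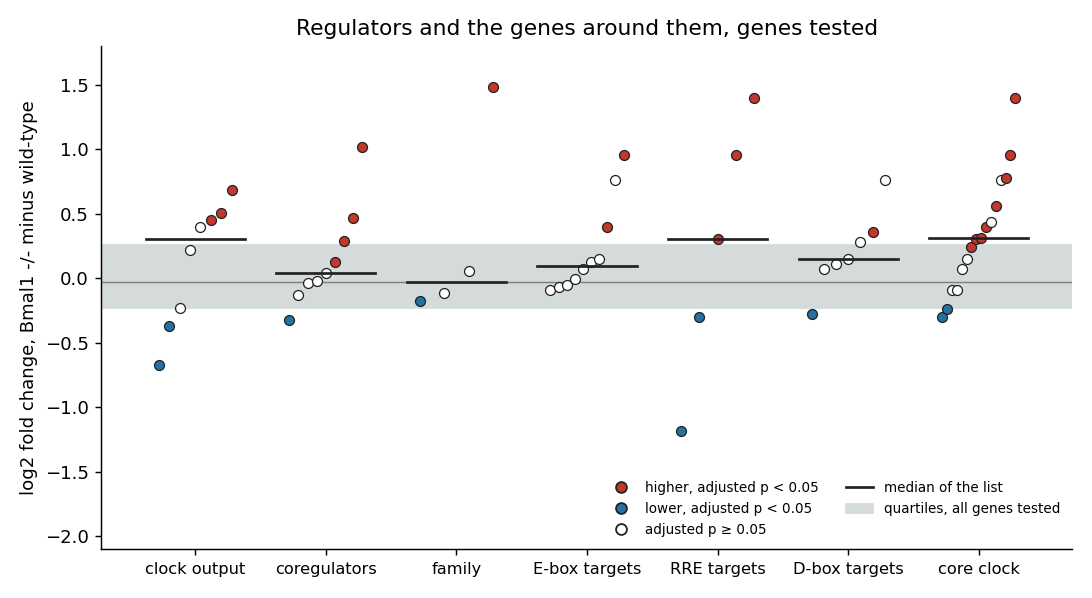
Log2 fold change (libraries labelled Bmal1-/- minus wild-type) of each gene tested, by list, where family holds the relatives outside the regulators. Red and blue points have an adjusted p under 0.05 and are higher or lower, white points do not, horizontal lines are list medians, and the grey band spans the quartiles of all genes tested. The clock output regulators lie on both sides of 0, from −0.68 for Bhlhe40 to 0.69 for Rora.

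The genes most like Tef over the 4 libraries, by Euclidean distance of log2 profiles centred on their own means, were Tacc1 (0.0077), Zdhhc15 (0.019) and Ly75 (0.024). Those most like Bhlhe40 were Mir363 (0.036), Zfp629 (0.041) and Emp3 (0.047), all with low values. Mir363 had 16.9 and 20.2 in wild-type and 10.3 and 11.4 under the Bmal1-/- label. Counting error at such levels is large beside these distances. Within a distance of 0.1 lay 207 genes for Tef and 13 for Bhlhe40. With 4 libraries in 2 labels this likeness says little more than a like size of difference.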

How the data were processed

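The data were mRNA-seq of JM8 mESCs, with 2 biological replicates of wild-type and 2 of Bmal1-/-. Stranded libraries were sequenced as paired reads, trimmed with cutadapt 1.9.1 and aligned to mm9 with STAR 2.5.2b, per the labels, and normalized with TMM in NOISeq by the authors. The gene counter and its strand setting are not given in the sources used here. The deposited values are this TMM-normalized signal, in which reads per gene were scaled once per library. All values above 0 (100%) were whole multiples of 1 number per library (tolerance 0.01 of a read), and the reads so recovered served edgeR and DESeq2. A floor of 3 reads corresponds to 2.82 to 3.19 normalized reads, and Poisson intervals cover counting error only.

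limma 3.58.1 in R 4.3.3 (moderated variances that follow the mean level, prior degrees of freedom 18.1) was fitted without covariates to log2(value + 1) of genes with a mean of at least 10, which understates the change of low genes, and adjusted by Benjamini-Hochberg over all 14510 genes. edgeR 4.0.16 (quasi-likelihood) and DESeq2 1.42.0 were alternatives, and all were tested on simulated data. The other alternatives were the filter, pseudocount, scaling, trend, replicate block and each library left out. The regulators, lists and tests were chosen with earlier results of these data known. Named list genes are those with the smallest p in each direction among the called of each list, and relatives or clock partners of the regulators, and further list genes were named after their values were seen. Likeness was measured for the regulator with the smallest p in each direction. Lists were written by hand, 2 genes were matched through a synonym and 2 not matched, and some list genes are not reported here. Exon lengths and coordinates are of GENCODE M1 (mm9), and promoter windows of RefSeq (GRCm38.p6), which were not mixed. Python 3.11.15 drew the figures.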

Additional observations from a re-analysis of the deposited data

How the results depend on the processing

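All 8 regulators tested kept their direction under every alternative in which they could be fitted. Bhlhe40 and Tef were called in all 16, Nr1d2 in 14. The calls of Rora and Dbp depended on the setting. With no filter on low values Nr1d2 (−0.37), Rora (0.69) and Dbp (0.45) lost their calls, leaving 1 regulator higher and 1 lower (median 0.22). With a mean of at least 1 Rora (0.69) and Dbp (0.45) lost theirs (1 higher, median 0.22), as with quantile normalization (0.42 and 0.27, 1 higher, median 0.12) and in DESeq2 (0.77 and 0.50, 1 higher, median 0.34). In limma without the trend Nr1d2 (−0.37), Rora (0.69) and Dbp (0.45) were not called while Hlf (0.40) and Nfil3 (0.22) were, which left 1 lower. With a mean of at least 100, 5 regulators were tested, with 1 higher and a median of −0.23, since fewer genes enter. The median was 0.26 with a pseudocount of 10, 0.37 with equal library totals and 0.34 in edgeR. For the other changes the cause was not tested.

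For the lists, relatives had 0 called higher with a mean of at least 100 (median −0.18) and 0 lower with equal library totals, without the trend and in DESeq2, and a median of −0.21 with quantile normalization. Coregulators had 2 higher with no filter and without the trend, and medians of 0.10 with equal library totals and 0.083 with quantile normalization. Other medians with a mean of at least 100 were 0.24 (core clock), 0.055 (E-box), 0.0029 (RRE) and 0.13 (D-box), and with equal library totals 0.37, 0.15, 0.37 and 0.21, where 2 D-box targets were higher. RRE and D-box medians were 0.35 and 0.12 with quantile normalization, and the D-box median 0.21 with no filter.

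With each library left out in turn, the log2 fold change ranged from −0.41 to −0.049 for Nr1d1, 0.36 to 1.01 for Rora and 0.29 to 0.61 for Dbp. Regulators called higher ranged from 1 to 3, those past 2-fold from 0 to 1, and the median from 0.24 to 0.34. Relatives called lower ranged from 0 to 1, coregulators higher from 2 to 4 and lower from 1 to 2, and D-box targets higher from 1 to 2. List medians ranged from −0.0008 to 0.10 (coregulators), 0.26 to 0.32 (core clock), −0.019 to 0.16 (E-box), 0.25 to 0.36 (RRE) and −0.035 to 0.34 (D-box). Where 1 library remained under a label, it was assumed to vary like the other label.

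Over all genes, 2515 were lower without the trend and 2536 in DESeq2, against 4151, and 318 passed 2-fold with a mean of at least 100 and 704 genes with a pseudocount of 10, against 1046. Replicate numbers name only an experiment, and deviations of same-numbered libraries correlated at −0.02, so that nothing shows that they pair the libraries. With the replicate number as a block, 3617 genes were higher and 4332 lower, and the regulators still counted 3 higher and 2 lower. Depth limits Bhlhe41, Rora and Hlf, with 4 to 53 reads per library, and 2 replicates of 1 line per label limit every result.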
